A study of Mus musculus with 12 samples.

Results

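Mast cells were looked for among the cells of 6 mouse mammary tumours by their protease transcripts, whatever class the authors had given each cell. A cell was taken as a member when it held at least 10 unique molecular identifiers (UMIs, counts of single captured molecules) summed over Cpa3, Tpsb2 and Mcpt4. Of 60657 cells in the libraries made from whole tumours, 57 met this rule. No class of mast cells was among the authors' annotations of these libraries. The rule was set with results of these data known, and it uses 3 transcripts of the cells it describes, so levels in the members are given as a description with no test.

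The tumours were grown from 4T1, a mouse line used as a model of triple-negative breast cancer. Of the 6 tumours, 5 each came from a single-cell-derived clone of the line, called E (epithelial), EM1, EM2 and EM3 (intermediate) and M (mesenchymal), and 1 came from the parental population. All were implanted in the mammary fat pad of female BALB/c mice aged 9 to 11 weeks, which have an intact immune system. Each tumour gave a library of all cells (Total) and a library of leukocytes enriched on magnetic beads for CD45. There was 1 tumour per group, and each clone is 1 clone of its state, so no difference between tumours could be tested, and the cells of 1 library are not replicates of a condition.

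Mast cells are tissue-resident leukocytes that arise from bone marrow progenitors and mature under stem cell factor, the ligand of the receptor Kit. Their granules hold histamine and heparin together with tryptases, chymases and carboxypeptidase A3, and they release these when antigen cross-links IgE on the high-affinity receptor FcεRI. In the mouse, connective tissue mast cells carry Mcpt4, Cma1, tryptases and Cpa3, mucosal mast cells carry Mcpt1 and Mcpt2, and basophils, which are circulating relatives, carry Mcpt8 and Prss34 and share Cpa3, Fcer1a and Hdc with mast cells.

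The proteases that define the members lie in 2 gene clusters and at 1 separate locus of the mouse genome (positions from GENCODE on GRCm38). Tpsb2 (chr17:25366305-25369098, plus strand), Tpsab1 and Tpsg1 fall within 31.2 kb of chromosome 17. Mcpt4 (chr14:56059629-56062313, minus strand), Cma1, Mcpt1, Mcpt2, Mcpt9, Mcpt8, Ctsg and Gzmb fall within 320.8 kb of chromosome 14, and Cpa3 lies alone at chr3:20215620-20242181 on the minus strand. The coding sequences of Tpsb2 and Tpsab1 were identical at 75.8% of aligned bases, those of Mcpt1 and Mcpt2 at 82.1%, and those of Mcpt1 and Mcpt4 at 86.5%, with longest shared runs of 39, 49 and 46 bases. Counts of these close relatives are therefore uncertain where a read or probe falls in a shared run. The probe sequences were not used here.

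Gata2, a zinc-finger factor that mast cells and basophils need, binds DNA at GATA motifs, and the 4 sequences below show where the extended forms of this motif (AGATAA or its variant AGATAG, and, with another first base, TGATAA or its variant TGATAG), on either strand, stand in the promoters of 4 genes that separated the members from other cells. They are the 150 bases before the start of transcription in RefSeq (GRCm38.p6), written 5′ to 3′ along the gene's strand, with each match in capitals. Cpa3 is at chr3:20242182-20242331, Mcpt4 at chr14:56062311-56062460, Cma1, the gene of mast cell chymase, at chr14:55944676-55944825, and Ms4a2, the gene of the FcεRI beta chain, at chr19:11623720-11623869, all on the minus strand. Cpa3 and Mcpt4 are rule genes, so that they separated the members was fixed by the rule.
Cpa3: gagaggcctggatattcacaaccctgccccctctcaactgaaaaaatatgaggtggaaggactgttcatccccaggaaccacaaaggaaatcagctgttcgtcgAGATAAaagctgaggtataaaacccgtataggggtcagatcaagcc
Mcpt4: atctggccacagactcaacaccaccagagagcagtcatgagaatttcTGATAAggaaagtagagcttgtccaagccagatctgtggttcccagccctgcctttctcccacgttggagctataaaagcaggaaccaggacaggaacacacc
Cma1: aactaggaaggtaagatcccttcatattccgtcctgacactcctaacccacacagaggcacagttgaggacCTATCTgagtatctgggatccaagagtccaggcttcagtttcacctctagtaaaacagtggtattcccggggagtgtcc
Ms4a2: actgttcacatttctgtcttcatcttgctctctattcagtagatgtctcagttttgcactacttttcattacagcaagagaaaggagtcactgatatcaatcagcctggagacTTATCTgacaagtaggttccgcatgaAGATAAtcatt
The first base of the match stood 46 bases before the start in Cpa3, 103 in Mcpt4 and 79 in Cma1, and Ms4a2 held matches at 37 and 11 bases. At least 1 match was found in 16% of 32851 promoter windows of this length, and at least 2 in 2.54%. No match was found in the windows of Mcpt8, Hdc, Gata2 or Kit. A match is a description of these letters and was not tested as a binding site.

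The members were rare in every tumour. Clone E gave 14 of 11020 Total cells (0.127%, exact Clopper-Pearson 95% interval 0.0695 to 0.213%), EM1 gave 4 of 6709 (0.0596%, 0.0162 to 0.153%) and EM2 gave 14 of 10015 (0.140%, 0.0764 to 0.234%). EM3 gave 11 of 8607 (0.128%, 0.0638 to 0.229%), M gave 4 of 13467 (0.0297%, 0.0081 to 0.0760%) and the parental tumour gave 10 of 10839 (0.0923%, 0.0443 to 0.170%). Over all 6 the share was 0.0940% (0.0712 to 0.122%). These intervals cover counting error only and not the spread between animals. Clone M had the lowest share, and its upper bound lay just under the lower bound of EM2 but above those of E, EM1, EM3 and the parental tumour.

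Tumour cells made up different parts of these libraries, so the shares were also taken over the cells not annotated as tumour, fibroblast or endothelial. This base holds 54 of the members among 39249 cells (0.138%), since 3 members were annotated as tumour cells. Clone E stood at 0.140%, EM1 at 0.108%, EM2 at 0.224%, EM3 at 0.154%, M at 0.0361% (3 members) and the parental tumour at 0.201%. Clone M was again lowest, and the upper bound of its interval (0.00745 to 0.106%) lay below the lower bound of EM2 (0.122%) and above those of the other 4 tumours. The clone M share rests on few cells. At a minimum of 20 UMIs, 2 of its 13467 cells remained (0.0149%). The same number remained without members that held at least 10 UMIs of listed macrophage or tumour genes.

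**Figure D1:**
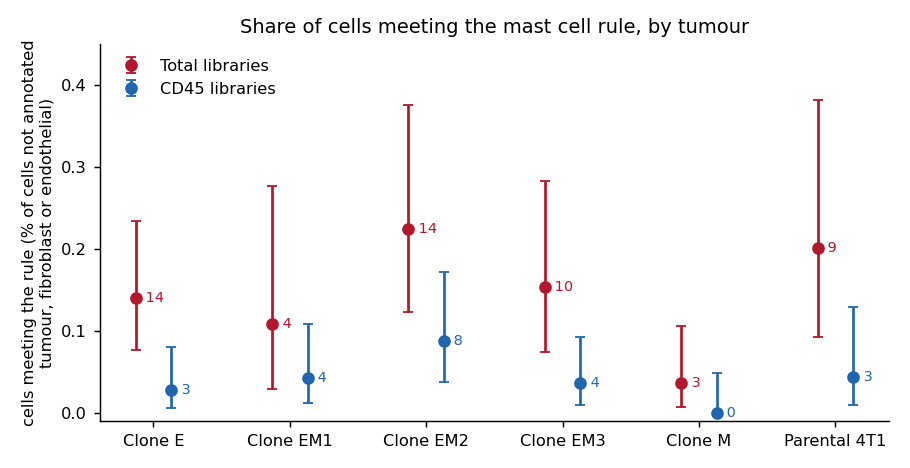
Cells that met the rule, as a percentage, among the cells not annotated tumour, fibroblast or endothelial, in the Total (red) and CD45 (blue) library of each tumour. Points are single libraries labelled with the number of such cells that met the rule, bars are exact 95% binomial intervals for counting error, and the CD45 point lies below the Total point in all 6 tumours, with 0 cells in the CD45 library of clone M.

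The rule genes fell into few cells. Of the 60657 Total cells, 59925 had 0 UMIs of the 3 genes, 647 had 1, 22 had 2 and 6 had 3 to 9, while 33 of the 57 members had 100 or more. The members held 14112 of the 14832 UMIs of these genes (95.1%). This share was 94.5 to 97.7% in 5 of the libraries and 71.1% in clone M, where the members held 231 of 325. Just inside the threshold were a cell of EM2 with 10 UMIs, a cell of M with 13 and a cell of M with 18. Just outside it were 2 macrophages of clone E with 8 and 6 and a tumour-annotated parental cell with 5. The clone E macrophage with 8 UMIs had only 940 UMIs in all, of which 97 were Tpsab1, 49 Mcpt1 and 5 Kit.

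**Figure D2:**
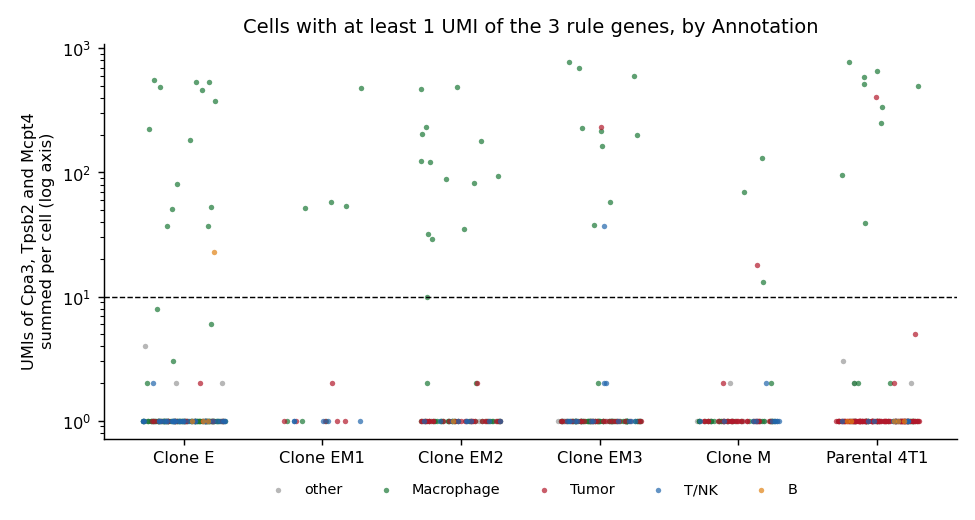
UMIs of Cpa3, Tpsb2 and Mcpt4 summed per cell (log axis), for all Total cells with at least 1, by tumour and coloured by the authors' annotation; the dashed line is the minimum of 10 and points are spread sideways at random. Cells with 1 UMI carried many annotations, and nearly all cells above the line were annotated as macrophages.

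The members were annotated almost entirely as macrophages. Of the 57, 52 carried that annotation (91.2%, exact 95% interval 80.7 to 97.1%), 3 were annotated as tumour cells (1 each in EM3, M and the parental tumour), 1 as a B cell (clone E) and 1 as a T/NK cell (EM3). This interval pools the cells of all tumours and covers counting error only, not the spread between animals. All 4 members of EM1 and all 14 of EM2 were annotated as macrophages, against 13 of 14 from clone E, 9 of 11 from EM3, 3 of 4 from M and 9 of 10 parental ones. They were a small part of that class, 0.287% of 18128 annotated macrophages, and ranged from 0.102% in clone M to 0.414% in EM2.

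The macrophage genes themselves were low in these cells. Csf1r, the receptor for macrophage colony-stimulating factor, had a UMI in 10 of 57 members, and C1qa, a complement chain of tissue macrophages, in 27. The 6 macrophage genes of the list (Csf1r, Adgre1, C1qa, C1qb, Mrc1 and Cd68) summed to between 144 and 5983 CPM of the members' UMIs (a gene's UMIs scaled to library size, summed over cells), against 7183 to 13938 CPM in the other cells of the same library and annotation, over the 4 tumours with at least 10 members. The members' summed levels of this list therefore did not overlap those of their neighbours. Single cells did reach the neighbours' level, as in an EM2 member with 168 UMIs of the list in 9140. Over the 47 members with fewer than 10 UMIs of the macrophage or tumour list, it stood at 327 against 11432 CPM. These 47 were chosen for few UMIs of this list, so their low level was fixed by that choice and nothing is read from it. None of the 6 genes of the list was at least 4-fold lower in each of these tumours, beside 0.548% of the 7485 genes compared further on.

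Some members, called mixed here, also held at least 10 UMIs of a list of macrophage or of tumour genes. At least 10 UMIs of the macrophage list were found in 7 members, and at least 10 of the tumour list (Krt8, Krt18, Epcam and Lcn2) in 3, which were the 3 annotated as tumour cells. The parental tumour-annotated member held 408 UMIs of the rule genes beside 199 of Krt8, a keratin of epithelial cells, in a total of 38319, the deepest of the 57. The EM3 one held 231 beside 48 of Krt8, and the clone M one held 18 beside 9 of Krt8 in 19436. The other 47 members had fewer than 10 UMIs of both lists. Scrublet, which scores cells against simulated doublets, called none of the 57, and called 2637 of all 115612 cells (2.28%). With 4 to 14 members per library and 2 simulated pairs per cell, few simulated doublets can hold a member. The lack of calls therefore says little about the members. Whether the 10 mixed members were 2 cells in 1 droplet was not tested further.

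Which libraries were run together was inferred from the droplet barcodes that they share. Such sharing tied the 12 libraries into 4 barcode groups: E with EM3, EM1 with EM2, M alone and the parental tumour alone. Pairs of libraries within a group had 818 to 1760 droplet barcodes in common, against at most 211 in any other pair. Full barcodes were shared only between groups, with 84 to 189 in each of 12 pairs. Differences between tumours of different barcode groups cannot be told apart from differences between those groups. Of the 57 members, 11 (19.3%) lay in a droplet that also held a cell of another library, against 25.5% of all Total cells, and none of those partner cells met the rule.

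Markers that the rule did not use were checked next. Of 9 other mast cell markers, a member had a UMI of 7 at the median, of at least 3 in 56 members and of at least 5 in 52. Gata2, a marker named beside the rule but not used in it, had a UMI in 29 of 57 members (50.9%), against 0.177% of 18076 other annotated macrophages, 1.93% of other tumour-annotated cells and 0.949% of other T/NK cells. The median depth was 4916 UMIs in members, 6640 in the macrophages, 12744 in the tumour-annotated cells and 1598 in the T/NK cells. With every cell thinned to 1000 UMIs, which left out 876 macrophages, 98 tumour-annotated cells, 1637 T/NK cells and no member, the shares were 22.8% in members, 0.0349% in macrophages, 0.187% in tumour-annotated cells and 0.820% in T/NK cells.

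Surface receptors that the rule did not use separated the members too. Kit, the stem cell factor receptor, had a UMI in 93.0% of members and 1.26% of other macrophages (57.9% and 0.273% thinned). Fcer1a, the IgE-binding alpha chain of FcεRI, had one in 89.5% of members and 0.598% of other macrophages (61.4% and 0.169% thinned). Kit was also found in 10.4% of other T/NK cells, the highest of the compared classes. For Gata2, Kit and Fcer1a, the share in members lay above those in macrophages, tumour-annotated cells and T/NK cells. The part of free RNA in these shares was not tested.

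Differences in level were then taken over the 4 tumours with at least 10 members (E, EM2, EM3 and parental), against non-members of the same library, weighted to the members' annotations. A gene was called higher or lower when it differed at least 4-fold in the same direction in each of the 4 tumours. Of 7485 genes with at least 20 CPM on either side, averaged over the 4, 155 were higher (2.07%) and 41 were lower (0.548%). Since the members were picked on the same transcripts and cells, nothing is read from these background shares beyond scale. The median difference over all 7485 genes was -0.27 on the log2 scale. Scaled without the 10 proteases, which took up much of the members' UMIs, it was 0.10, and the calls were 192 higher and 23 lower.

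The 6 largest mean differences were those of the proteases Mcpt2, Mcpt4, Tpsab1, Tpsb2, Cma1 and Cpa3, of which Mcpt4, Tpsb2 and Cpa3 are rule genes. Of the 10 on the list, 9 were above the minimum and 8 were higher in all 4 tumours, beside 2.07% of all genes. Of these 8, 3 are the rule's own genes. Together the 10 made up 177540 to 293650 CPM of the members and 8.38 to 38.5 CPM of the comparison cells. The protease share of a single member ran from 0.334% of its UMIs to 58.4%, with a median of 23.9%. It was hardly related to depth across the 57 cells (Spearman's rho -0.06, a description over cells that share libraries).

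Tpsab1, a tryptase that the rule did not use, gave 12427 UMIs over the clone E members, 1937 over those of EM1, 5534 of EM2, 6829 of EM3, 755 of M and 10039 of the parental tumour. Its level was 138705, 107852, 95256 and 111307 CPM in E, EM2, EM3 and parental members, against 3.28 to 17.7 CPM in the comparison cells, a mean log2 difference of 14.38 ± 0.96 (SD, n = 4 tumours). The summed level was thus high in the members of each of the 4 tumours and did not overlap that of the comparison cells. Single cells did overlap: Tpsab1 had a UMI in 54 of 57 members and in 2.79% of other macrophages. Across members its UMIs went with those of Tpsb2 (Spearman's rho 0.78, n = 57 cells), 2 genes that share sequence and each cell's depth.

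Cma1, the chymase that is closest to human mast cell chymase, stood at 6931, 8965, 10796 and 9580 CPM in the same order of tumours, against at most 0.913 CPM in comparison cells (log2 difference 14.13 ± 1.14). It had a UMI in 56 of the 57 members and in 0.315% of other macrophages. Tpsg1, a membrane-anchored tryptase, had a UMI in 45 members, with a log2 difference of 11.01 ± 1.07. Ctsg, cathepsin G, was listed at 0 in the parental members and at 123, 507 and 544 CPM in E, EM2 and EM3, and was found in 12 members. Mcpt9 had 1 UMI in the members, and was listed at 0 in every cell of the EM1 library.

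The mucosal proteases differed in spread between tumours. Mcpt2, a mucosal chymase, had 5454 UMIs over the clone E members, 723 over those of EM1, 1334 of EM2, 1294 of EM3, 77 of M and 1486 of the parental tumour, and was found in all 14 members of clone E and 46 of 57 in all. Of the 1294 in EM3, 952 (73.6%) came from 1 cell, the one annotated as T/NK. Mcpt1, the mucosal chymase used in blood as a marker of gut mast cells, had 4085 UMIs over the members of clone E, 359 over EM1, 47 over EM2, 521 over EM3, 41 over M and 25 over the parental ones. It had a UMI in 13 of 14 members from clone E and 4 of 4 from EM1, against 3 of 14 from EM2, 3 of 11 from EM3, 1 of 4 from M and 3 of 10 parental ones.

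In CPM, Mcpt1 stood at 45595 for clone E, 916 for EM2, 7267 for EM3 and 277 for the parental members. Among these 4 its level was highest in clone E. Of the 47 UMIs in EM2, 45 came from 1 mixed member, so the place of EM2 above the parental tumour rests on that cell. In EM3, 288 of the 521 UMIs came from 1 cell. The 4 members of EM1 stood at 25798 CPM. The cells of the CD45 libraries that met the rule are described further on, and number 3 to 8 in each of these 5 tumours. Their Mcpt1 stood at 44872 CPM from clone E, 15421 from EM1, 7364 from EM2, 23377 from EM3 and 5764 from the parental tumour. Clone E was thus highest in both kinds of library, while EM1 lay below EM3 in the CD45 cells and above it in the Total members. In the parental CD45 cells, 47 of the 52 UMIs came from 1 cell. No order of the tumours below clone E is read from these values. Of the 5078 Mcpt1 UMIs, 35.2% came from 1 cell of clone E. Each tumour is 1 animal, and these values describe those tumours. Connective tissue genes were present beside the mucosal ones. Of the 4 on that list that the rule did not use, Cma1, Tpsab1, Mrgprb1 and Mrgprb2, all were higher in each of the 4 tumours. Of the 4 mucosal genes, 2 were, beside 2.07% of all genes. The integrin chain Itgae, an adhesion molecule of mucosal lymphocytes and mast cells, had a UMI in 3 members, and its partner Itgb7 in 32.

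**Figure D3:**
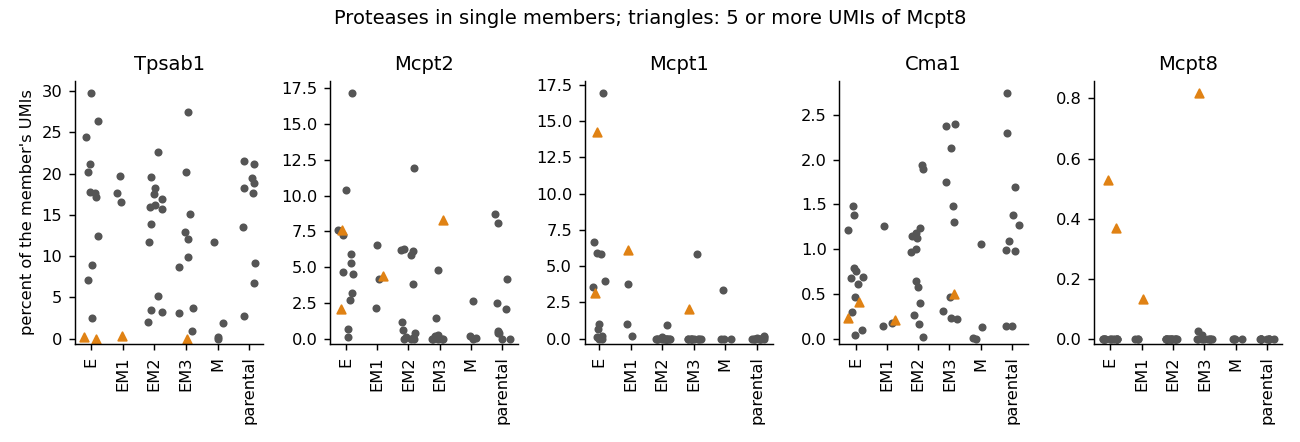
UMIs of 5 proteases as a percentage of each member's UMIs, by tumour, with 1 point per cell and a separate linear scale in each panel; triangles are the 4 members with 5 or more UMIs of Mcpt8. Mcpt1 reached high values mostly in members of clone E, and the triangles were at or near 0 for Tpsab1.

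The IgE receptor was present with part of its signalling chain. Of the 14 genes of FcεRI and its signalling, 4 were higher and none lower, beside 2.07% and 0.548% of all genes. Fcer1a was at 1072, 896, 2009 and 1408 CPM against at most 1.86 (log2 difference 10.43 ± 0.86), and Ms4a2, the beta chain, at 335, 156, 460 and 344 CPM against at most 0.954 (9.31 ± 1.01). The adaptors Lat (6.08 ± 1.17) and Lcp2, also called SLP-76 (2.34 ± 0.28), were the other 2. Fcer1g, the gamma chain that macrophages also use for IgG receptors, differed by -0.35 ± 0.42, and the kinases Syk by -0.79 ± 0.73 and Lyn by -1.30 ± 0.57, none of them called.

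Among surface receptors, 7 of the 16 above the minimum were higher and 1 lower, beside 2.07% and 0.548% of all genes. Kit was at 971, 604, 725 and 665 CPM against 2.01 to 12.7 in comparison cells (7.52 ± 1.14), and Il1rl1, the receptor ST2 for interleukin-33, at 2076, 1968, 1785 and 1574 CPM against 6.96 to 44.8 (7.32 ± 1.35). Il1rl1 had a UMI in 55 of 57 members. Mrgprb1 (11.37 ± 1.63) and Mrgprb2 (6.88 ± 0.64), receptors of the family through which basic peptides and drugs activate mast cells without IgE, were both higher. Adora3, an adenosine receptor (4.01 ± 1.24), Il9r, the interleukin-9 receptor (6.85 ± 0.52), and Cd200r3, an activating receptor of mast cells and basophils (9.09 ± 0.19), completed the group. C5ar1, the receptor for complement C5a, was lower (-3.15 ± 1.44).

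Of 10 transcription factors above the minimum, 2 were higher, beside 2.07% of all genes. Gata2 was at 547, 136, 614 and 188 CPM, against 0.245 to 1.85 CPM in comparison cells (8.81 ± 0.34). Tal1, a partner of GATA factors in blood cells, was at 78.1, 58.5, 139 and 133 CPM against 2.64 to 8.67 (4.03 ± 0.91). Mitf, a factor that mast cells need for Kit and protease expression, differed by 1.98 ± 0.28 and missed the 4-fold rule, and Spi1, a factor of macrophages and mast cells alike, by -1.30 ± 0.63. Gata1 had 3 UMIs in the members, and was listed at 0 in every cell of the EM1 and M libraries.

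Of 15 mediator genes above the minimum, 5 were higher and none lower, beside 2.07% and 0.548% of all genes. Hdc, which makes histamine, was at 2043, 3391, 3376 and 1508 CPM against 7.38 to 34.3 (7.21 ± 0.91). The table splits this gene over a second entry marked as deprecated, which differed by 6.93 ± 1.05. Tph1, the first enzyme of serotonin synthesis, was at 1373, 1832, 851 and 1175 CPM against at most 0.312 (12.46 ± 0.54), and Ddc, the next enzyme, differed by 7.95 ± 0.83 on 22 UMIs in all members. Hs6st2, a sulfotransferase of heparan chains, differed by 10.19 ± 0.58, and Alox5, which starts leukotriene synthesis, by 4.02 ± 1.46.

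The other 10 mediator genes above the minimum were not called. Srgn, the core protein that carries heparin in granules, was found in all 57 members and in the comparison cells too (log2 difference 0.85 ± 0.27). Hpgds, the prostaglandin D synthase of mast cells, differed by 0.55 ± 1.05, and Ltc4s, which makes leukotriene C4, had 4 UMIs in 4 members. Of 11 exocytosis genes above the minimum, 1 was higher, beside 2.07% of all genes. This was Rab27b, a GTPase that docks granules (8.31 ± 1.11, with a UMI in 55 members). Vamp8 (-1.17 ± 0.50) and Stxbp2 (-0.79 ± 0.77), which act in granule fusion, were not called.

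Of 18 cytokines and chemokines above the minimum, 1 was higher and 1 lower, beside 2.07% and 0.548% of all genes. Ccl1, a chemokine for CCR8, was higher (7.02 ± 0.80), but with a UMI in 9 members, which were 1 cell each of clone E (6 UMIs) and the parental tumour (2 UMIs), 3 of EM2 and 4 of EM3. Il1b was lower (-5.32 ± 0.81). Il6 was at 1183, 702, 363 and 499 CPM against 40.6 to 123 (3.05 ± 1.00), with a UMI in 39 members, and missed the 4-fold rule in at least 1 tumour. Il13, a type 2 cytokine, had 40 UMIs in 11 members, and Il4 had 10 in 3.

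Single cells carried other cytokine totals. Of 138 UMIs of Lif, 73.9% came from 1 member, which was the tumour-annotated parental cell, and of 28 UMIs of Tnf, 92.9% came from 1 member. Il3, Il5 and Il9 had 0 UMIs in the 57 members, and Il9 was listed at 0 in every cell of the EM1 library.

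**Figure D4:**
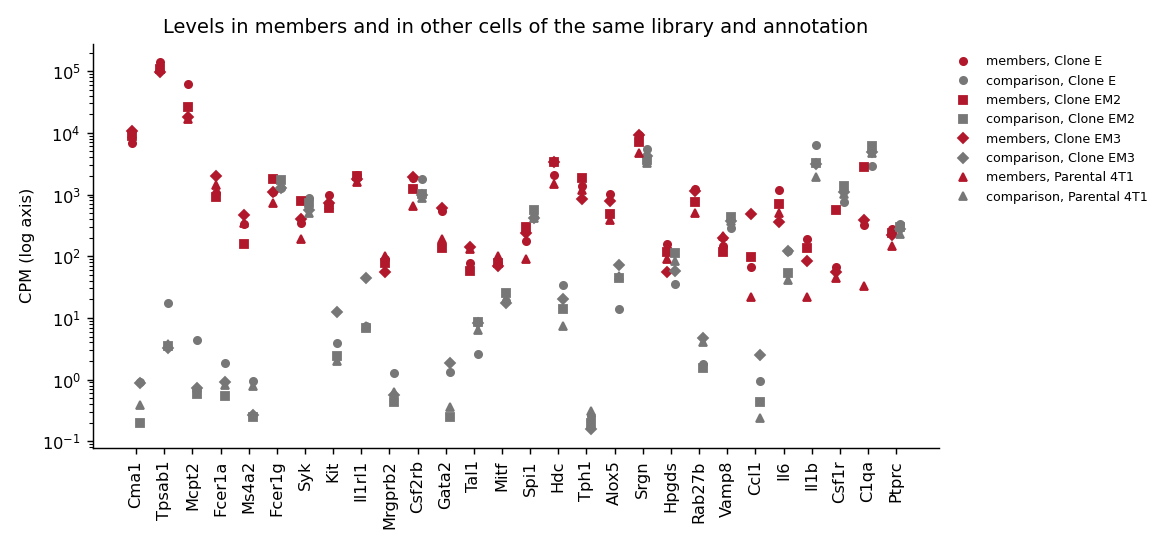
CPM (log axis) of 28 listed genes in the members (red) and in other cells of the same library and annotation (grey), with 1 symbol per tumour for the 4 tumours with 10 or more members; values of 0 are not drawn. The proteases, Fcer1a, Ms4a2, Kit, Gata2, Hdc, Tph1 and Rab27b were separated by orders of magnitude, while Fcer1g, Syk, Csf2rb, Hpgds and Ptprc overlapped or lay close together.

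The 25 genes with the largest mean differences also held genes outside the mast cell lists. Serpinb1a, an inhibitor of leukocyte serine proteases, was at 1652 to 2650 CPM against at most 7.20 (9.61 ± 1.22). Cobl, an actin nucleator, differed by 10.31 ± 1.67, Car8, a carbonic anhydrase relative, by 9.82 ± 0.80, and Maob, a monoamine oxidase, by 9.25 ± 1.64. The inhibitory G protein subunits Gnai1 (9.26 ± 0.76) and Gnaz (8.90 ± 1.90) were both among them, and so was Cyp11a1, the enzyme that opens steroid synthesis from cholesterol, counted here with the basophil genes (10.75 ± 1.73, with a UMI in 55 members). Mrgprx2 (8.45 ± 1.16), Tmem132e (8.68 ± 1.13) and the retroviral gene Erv3 (8.39 ± 1.52) completed these 25 beside proteases, Tph1, Mrgprb1, Fcer1a, Hs6st2, Ms4a2, Cd200r3 and Gata2.

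Among the 41 genes lower in members, the 10 with the largest mean differences were Il1b, the metalloproteinases Mmp12 (-4.88 ± 1.17) and Mmp19 (-4.53 ± 2.43), arginase Arg1 (-4.20 ± 1.89), the chemokines Cxcl3, Ccl9 and Ccl6, the lectin receptors Clec4e and Clec4n, and Thbs1. Il1b was at 190, 136, 83.7 and 22.2 CPM in members, against 6349, 3186, 3125 and 1935 CPM in comparison cells. This group depends on the comparison. Against all other cells of the library 12 genes were lower, of which 5 were among the 41. Without the mixed members 119 were lower, of which 25 were among the 41.

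Of the markers of other cell types, several lists were near 0. Siglecf, Prg2 and Epx, the eosinophil list, had 1 UMI in all 57 members, although Epx was listed at 0 throughout the EM1 library. The NK list had 1 UMI, the dendritic cell list 4 and the B cell list 9, of which 8 lay in 1 cell. Klrb1c of the NK list was listed at 0 in every cell of the EM1, EM2 and M Total libraries. The granulocyte list summed to 300 CPM against 944 CPM in the pooled comparison cells. The plasma cell and plasmacytoid lists summed to 372 and 322 CPM against 515 and 480 CPM.

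Other lists were above the comparison. The basophil list summed to 2306 against 18.9 CPM, with Cd200r3 and Cyp11a1 called, and the innate lymphoid list to 1735 against 77.5 CPM, with Il1rl1 called. Of the 831 UMIs of the basophil list, 473 were Cyp11a1 and 135 Cd200r3, both also found in mast cells here. Its proteases Mcpt8 and Prss34 had 203 and 0, and 201 of the Mcpt8 UMIs lay in 4 members. Il1rl1 gave 596 of the 625 UMIs of the innate lymphoid list. The tumour cell list summed to 1310 against 318 CPM, but 334, 77 and 11 of its 472 UMIs lay in the 3 tumour-annotated members, and the 54 others stood at 172 against 170 CPM in their own comparison cells. The platelet list summed to 530 against 344 CPM, with the integrin chain Itga2b called (427 against 368 without the mixed members), and the T cell list to 402 against 150 CPM. The fibroblast list stood at 178 against 164 CPM and the endothelial list at 111 against 56.0 CPM. The part of such transcripts in the members' levels was not tested beyond the sets without mixed members. Ptprc, which encodes CD45, was at 279, 234, 223 and 144 CPM in the members and at 332, 298, 281 and 232 CPM in comparison cells, a difference of -0.40 ± 0.19. Of the cell division list, none of 9 genes was called, and its UMIs were 10 or more in 9 members.

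Cd3e stood apart from the other T cell genes. This chain of the T cell receptor complex had 136 UMIs in 36 of 57 members (63.2%), against 4.48% of other macrophages and 68.0% of other T/NK cells (31.6%, 1.10% and 59.9% thinned to 1000 UMIs). Its partners Cd3d and Cd3g had 1 and 0 UMIs in the 57 members, Trac had 4 and Cd8a had 0. The source of the Cd3e UMIs was not tested. Gzmb, granzyme B of killer cells, whose gene ends the chromosome 14 cluster of the chymases, was found in 15 members.

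**Figure D5:**
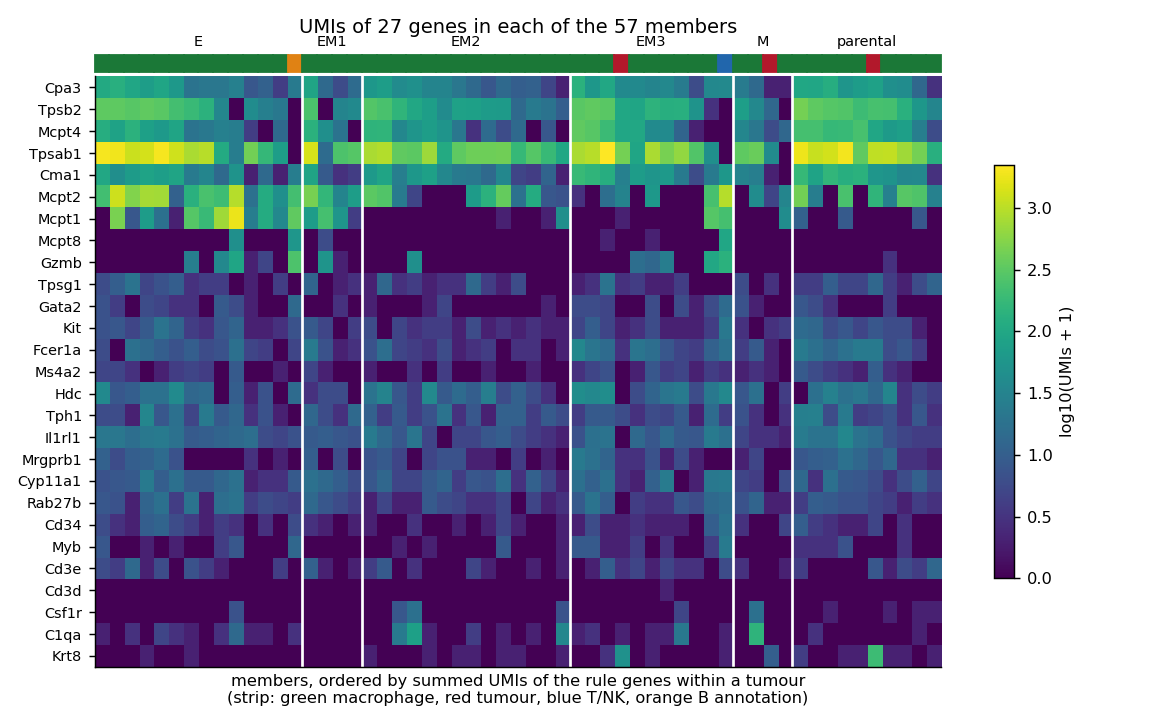
UMIs of 27 genes (colour, log10 of UMIs + 1) in each of the 57 members, 1 column per cell, grouped by tumour and ordered by the rule UMIs, with the annotation as a strip on top. Kit, Fcer1a, Hdc, Tph1, Il1rl1, Cyp11a1 and Rab27b run across nearly all columns, Cd3e appears without Cd3d, and 4 columns with Mcpt8 lack Tpsb2.

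The rule was not met in the same way by every member. Of the 57, 47 had UMIs of all 3 genes, 5 had Cpa3 and Tpsb2, 3 had Cpa3 and Mcpt4, and 2 had Cpa3 alone. Those 2 were the member annotated as a B cell and the one annotated as a T/NK cell. Both belonged to a set of 4 members with at least 5 UMIs of Mcpt8, a basophil protease: the B-annotated cell of clone E (56 UMIs), a macrophage-annotated cell of clone E (46), one of EM1 (5) and the T/NK-annotated cell of EM3 (94). The choice of this set was made after its values were seen. The macrophage-annotated cell of clone E was 1 of the 7 members with at least 10 UMIs of the macrophage list, so values are given with and without it.

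These 4 cells had 0 UMIs of Tpsb2, as did 1 other member. Tpsab1 was at 1015 CPM in them (541 without the mixed cell), against 165630 CPM in the 44 other members that were not mixed. Mcpt1 was at 67194 against 12547 CPM, but 1785 of its 2581 UMIs lay in the mixed cell, and the 3 other cells stood at 30749 CPM. Tumour moves with this: beside the other unmixed members of the same tumour, Mcpt1 was at 31426 against 34530 CPM in clone E, 61219 against 12698 CPM in EM1 and 20170 against 7084 CPM in EM3, with 1 Mcpt8 cell in each. Gzmb, at 13954 CPM (17190 without the mixed cell) against 1149, had 53 to 257 UMIs in each of the 4. Beside the summed level of the other unmixed members of the same tumour, the 3 unmixed cells stood at 24181 against 1186 CPM in clone E, 14107 against 98.4 CPM in EM1 and 11737 against 3764 CPM in EM3.

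These levels were not particular to cells with Mcpt8. Another EM3 member, with 0 UMIs of Mcpt8 in 4916, held 101 of the 153 Gzmb UMIs of the other unmixed EM3 members and all 288 of their Mcpt1 UMIs, beside 2 of Tpsb2 and 46 of Tpsab1.

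Myb, a factor of blood progenitors, had 12 and 7 UMIs in the 2 cells of clone E, 0 in that of EM1 and 22 in that of EM3. Its summed level was 1067 CPM (1313 without the mixed cell) against 309, and with 0 in 1 of 4 cells no difference is read from it. Cd34, a surface marker of progenitors and of mouse mast cells, had 1 to 18 UMIs per cell and stood at 677 CPM (927 without the mixed cell) against 443. Beside the other unmixed members of the same tumour it was at 470 against 549 CPM in clone E, 266 against 295 in EM1 and 1565 against 492 in EM3. The higher summed level thus rests on the EM3 cell, and no difference is read from it.

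Mast cell genes were present in them as well. Cma1 was at 3697 CPM (3515 without the mixed cell) against 12573, Kit at 1093 (1198) against 897, and Ms4a2 at 286 (116) against 417 CPM. Kit had 4 to 21 UMIs in each of the 4 cells. Beside the other unmixed members of the same tumour, Kit was at 565 against 921 CPM in clone E, 1065 against 1083 in EM1 and 1826 against 713 in EM3. Mrgprb1 had 0 UMIs in the 4 cells and 1170 CPM in the 44, while Prss34, the second basophil protease, had 0 in both and was listed at 0 in every cell of the EM1 library. The 4 cells thus held Mcpt8 and Mcpt1 with little tryptase, together with Kit. With 4 cells from 3 tumours, no test was made.

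The same rule was then applied to the CD45 libraries. There, 22 of 54955 cells met it (0.0400%, 0.0251 to 0.0606%): clone E gave 3, EM1 4, EM2 8, EM3 4, M 0 and the parental tumour 3. The 0 of 7595 cells in clone M allows a share of up to 0.0486% by the exact 95% interval. That 0 is uncertain, since Tpsb2 was listed at 0 in every cell of that library while its relative Tpsab1 had 82 UMIs in 10 cells, so a cell could meet the rule there by Cpa3 and Mcpt4 alone. Their annotation differed from that of the Total members. Of the 22, 20 were in the authors' class T/Myeloid Hybrid, all in its subtype T/Myeloid Hybrid2, where they were 5.63% of 355 cells, and 1 each was annotated as a dendritic cell and a macrophage. The 2 kinds of library carry different sets of classes, so shares of classes are not compared between them.

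The authors' deposited table for these libraries also holds a label from SingleR, which matches each cell to reference profiles. It named 22 cells mast cells, all of them in the hybrid class, and 20 of these met the rule. Of the 2 that did not, 1 was in clone M, with 73 UMIs of Tpsab1, 36 of Mcpt1 and 1 each of Cpa3 and Mcpt4 in 601, and 1 was parental, with 257 of Mcpt1 and 6 of the rule genes in 1931. The 2 other cells that met it were labelled macrophages. The same column named 16 cells basophils, none of which met the rule, and 10 of these were in the hybrid class.

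The cells from the 2 kinds of library resembled each other in what else they held. Of 7333 genes above the minimum in the CD45 comparison, which pools the 22 cells, 332 were at least 4-fold higher (4.53%) and 513 lower (7%). Of the 155 genes higher in Total members, 140 were above the minimum there. At least 4-fold higher there were 124 of them, which is 80% of the 155 and 37.3% of the 332. In the 22 cells, Tpsab1 was at 132624 CPM, Hdc at 2555, Kit at 1009, Fcer1a at 1022 and Gata2 at 370 CPM. Gata2 was listed at 0 in every cell of the EM1 and EM2 CD45 libraries, and in the 10 cells of the 3 other tumours it stood at 628 CPM. The 2 comparisons share no cells, but they share tumours and the rule's genes. Their comparison cells differ, being other macrophages for 52 of the 57 members and other T/Myeloid Hybrid cells for 20 of the 22.

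The share of cells meeting the rule was lower in the CD45 library than in the Total library of each tumour, also over cells not annotated tumour, fibroblast or endothelial. In clone E it was 0.0275% against 0.140%, in EM2 0.0875% against 0.224%, and in the parental tumour 0.0442% against 0.201%. The exact 95% intervals of the 2 libraries overlapped in each of the 6 tumours. With the 2 libraries of a tumour taken as a pair, the CD45 share was lower in 6 of 6 pairs, by a mean of 0.104 ± 0.0450 percentage points (SD, n = 6 tumours). In the 4 tumours with no rule gene listed at 0 in a library it was lower in 4 of 4, by 0.131 ± 0.0204 percentage points. No p-value is given, since this pairing was chosen after the shares were seen. Depth was lower in the CD45 library of 5 tumours, with medians of 1557 to 3453 UMIs per cell against 4679 to 10042 in the Total library. In clone E it was higher, at 3336 against 2351 UMIs, while the share was lower there too. The part of depth in the result was not tested. Rows of 0 also differed: 481 to 5582 of 18574 genes were listed at 0 in every cell of a CD45 library, against 17 to 3675 of 19369 in a Total library, and their part was not tested. Among mast cell genes, Cpa3 was listed at 0 in all 9506 cells of the EM1 CD45 library, so its 4 cells met the rule by Tpsb2 and Mcpt4. Tpsb2 and Cma1 were at 0 in all CD45 cells of clone M, Gata2 in those of EM1, EM2 and M, and Mcpt8 in those of E, EM1 and EM2.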

How the data were processed

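The authors' deposited files give raw UMI counts per gene and cell, made with Cell Ranger on mm10 per the submitters' processing notes (versions not given in the sources used here), with a table of annotations. The mitochondrial share of each cell is in the authors' deposited table as a percent of its counts. Tumours were digested with collagenase A and hyaluronidase and fixed, per the labels' protocols, which name both a fixed-RNA kit and 3′ reagents. The barcodes were read as those of the fixed-RNA kit, with the first 16 bases as the droplet part, so probe-based counting is inferred. The 6 Total libraries held 6709 to 13467 cells and 38499899 to 122055131 UMIs, with at least 250 to 650 genes in every cell, and the 6 CD45 libraries 6791 to 11024 cells. Members, gene lists and rules were chosen with earlier results of these data known. Summed counts were scaled to CPM in Python 3.11.15 with numpy 2.4.6, pandas 2.3.3 and scipy 1.17.1. Comparison cells had the same library and annotation, weighted to the members' mix. Where the members or the comparison had 0 UMIs, 3 UMIs were used for that side, and the fold is a bound. Every gene on the fixed lists was counted, and the 25 highest and 10 lowest called genes were named. Doublets were scored with Scrublet in scanpy 1.11.5 (6% expected, 2 simulated pairs per cell, 30 components) at a score limit of 0.262. The procedure was checked on simulated data.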

Additional observations from a re-analysis of the deposited data

How the results depend on the processing

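The rule's minimum was changed to 5 and 20 UMIs, to at least 2 of the 3 genes, to Tpsb2 and Mcpt4 alone and to 1000 CPM of the cell. Called doublets, none of them a member, were also left out. At 1000 CPM, which 1 UMI passes in a cell of under 1000, the share was 0.336% in clone E and 0.157% over all Total cells, and 61.1% of the 95 cells were annotated as macrophages. With the minimum of 10 UMIs kept, the share over cells not annotated tumour, fibroblast or endothelial was 0.201% in the parental tumour and 0.138% in all. With each tumour left out, 88.4 to 93.5% of members were annotated as macrophages. The number of lower genes, 41, was 23 scaled without the 10 proteases, 12 against all other cells and 119 without the mixed members. It was 73 by Tpsb2 and Mcpt4 alone, which left 3 tumours with 10 members. These 4 alternatives were chosen after seeing the data. The number of higher genes stayed within 1.5 times of 155 under all alternatives, between 123 and 192. Limiting the comparison to libraries with 20 members was not possible, since none had 20. Of the named genes, levels against all other cells of the library differed by 7.56 for Gata2, 6.10 for Kit, 5.73 for Hdc, 5.24 for Il1rl1 and -4.12 for Il1b (log2), against 8.81, 7.52, 7.21, 7.32 and -5.32 above. Gata2 was 9.33 by Tpsb2 and Mcpt4 alone and 9.52 without the mixed members. The values without the mixed Mcpt8 cell, and those without CD45 libraries where Gata2 was listed at 0, were also chosen after seeing the data. Between the tumours, no paired analysis was possible because each group is 1 library with the number 1. The Total and CD45 libraries of a tumour were compared as pairs above, a choice made after seeing the data and given with no test. Depth limits single members: at 1018 to 38319 UMIs per cell, a marker at 0 UMIs may still be expressed.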

Other observations

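Cells with Mcpt8 were also found outside the rule. Of 26 Total cells with at least 5 UMIs of this basophil protease that did not meet the rule, 14 were not annotated as tumour, fibroblast, endothelial or unknown, and all 14 had UMIs of Hdc and Gata2. Of these 14, 12 were annotated as T/NK cells, 10 of them in clone M, with 5 to 42 UMIs of Mcpt8 and 2 to 52 of Hdc. None of the 26 had a UMI of Kit or Cma1, and 1 had a UMI of Tpsab1. The other 12 cells were tumour, fibroblast or unknown, with 6 to 14 UMIs of Mcpt8, and Hdc was found in 2 of them.

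Of the 7 listed growth factors of mast cells, 3 are given here, and these were highest in different classes of the Total libraries. Kitl, the ligand of Kit, was at 174 to 289 CPM in endothelial cells over the 6 tumours, 31.9 to 53.9 in tumour cells and 12.6 to 29.3 in fibroblasts. Il33, the ligand of ST2, was at 97.4 to 478 CPM in fibroblasts and at most 18.3 in the other classes compared. Tslp, an epithelial cytokine that acts on mast cells, was at 88.5 to 621 CPM in tumour cells, highest in clone M and lowest in clone E, and at most 110 CPM in the others.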
